A study of Homo sapiens with 16 samples.

Results

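The ribosomal protein genes of the cytosol were followed through the RNA-seq of 2 multiple myeloma cell lines. A gene was taken as a member when its symbol was RPLP0, RPLP1, RPLP2, RPSA, or RPL or RPS with a number and at most an A, X or L after it. The rule found 80 of the 23354 genes in the count table, 49 of the large (60S) subunit and 31 of the small (40S) subunit. Of these, 78 had enough reads to be tested among 14215 genes. RPL3L, a striated muscle paralog of RPL3, and RPL10L, a testis paralog of RPL10, had at most 2 and at most 1 counts in any library and were not tested. Mitochondrial ribosomal proteins, ribosomal protein kinases and pseudogenes are outside the rule.

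MM1S is a human myeloma line that responds to glucocorticoids, and MM1R is its Dex-resistant counterpart. Each line received vehicle (Veh), 0.1 μM TAK-981, an inhibitor of the SUMO-activating enzyme E1, 1 μM dexamethasone (Dex), a synthetic glucocorticoid, or both agents (combo) for 48 h. Every one of the 8 groups had 2 libraries of total RNA depleted of ribosomal RNA, 16 in all, and no label says whether the 2 came from separate cultures, so p-values measure the spread between these libraries, which may be technical. Each line is a single cell line, so a difference between MM1R and MM1S holds for these cells and not for Dex resistance in general.

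Each ribosome holds about one copy of nearly every ribosomal protein, and a dividing or antibody-secreting cell spends much of its transcription and translation on them. The large subunit forms peptide bonds, the small subunit reads the mRNA, and the acidic P proteins RPLP0, RPLP1 and RPLP2 form the stalk that calls in the elongation factors. Vertebrate ribosomal protein mRNAs begin with a terminal oligopyrimidine (TOP) tract, a C followed by an unbroken run of C and T, through which mTORC1 and LARP1 govern their translation and stability. Some members have further roles: RPL5 and RPL11 bind MDM2 and free p53, and inherited loss of single members such as RPS19 causes Diamond-Blackfan anemia.

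The start sites of 64 members were found in the RefSeq table of promoters (GRCh38.p14), with 79 windows in all, and 16 members, RPL39L among them, were not matched. A C followed by at least 4 pyrimidines stood at the start in 46 of the 79 windows (58.2%), compared with 4.07% of 35116 windows of all genes. These 46 windows belonged to 46 different members, and their tracts ran from 5 to 19 bases with a median of 8. The sequences below run 5′ to 3′ from 10 bases before the start through the first 20 transcribed bases, with the TOP tract in capitals. They are shown for the stalk gene RPLP0, for RPS6, RPS21, RPL22 and RPL41, and for RPL39 and RPS27, which have paralogs among the members. All are named below, whether or not they were called.

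RPLP0, chr12:120201092-120201121, minus strand: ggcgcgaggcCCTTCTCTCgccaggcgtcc
RPS6, chr9:19380217-19380246, minus strand: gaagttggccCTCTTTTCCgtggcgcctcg
RPS21, chr20:62387093-62387122, plus strand: ctagctgcttCCTTTCTCTCTCgcgcgcgg
RPL22, chr1:6199576-6199605, minus strand: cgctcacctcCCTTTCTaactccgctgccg
RPL41, chr12:56116623-56116652, plus strand: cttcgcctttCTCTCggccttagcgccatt
RPL39, chrX:119791611-119791640, minus strand: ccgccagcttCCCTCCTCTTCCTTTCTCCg
RPS27, chr1:153990752-153990781, plus strand: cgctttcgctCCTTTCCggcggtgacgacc

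The next starts had no tract of that length at the annotated first base. RPS27L is the paralog of RPS27, and the other 3 are members that differed between treatments or lines.

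RPS27L, chr15:63157458-63157487, minus strand: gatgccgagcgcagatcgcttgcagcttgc
RPL3, chr22:39319604-39319633, minus strand: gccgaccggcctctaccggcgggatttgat
RPL10A, chr6:35468391-35468420, plus strand: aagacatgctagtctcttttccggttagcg
RPS15, chr19:1438386-1438415, plus strand: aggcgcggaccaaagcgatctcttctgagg

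Other letters near the start were also counted. CTCTTT within 20 bases of the start was held by 22.8% of member windows and 1.70% of all windows, and it can overlap a TOP tract. CCGGAAG, read on both strands, was in 34.2% of member windows and 10.3% of all windows. CACGTG, which reads the same on both strands, was in 5.06% and 7.26%, and TATAAA, read on the gene's strand 40 to 20 bases before the start, in 3.797% and 2.247%.

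Total counts ran from 15707587 to 24796539 per library with a median of 20268927, and the TMM factors from 0.978 to 1.03. Of 8 plasma cell markers, 7 were tested, and SDC1 (CD138) had 9762 to 22348 counts, IRF4 8297 to 35612 and XBP1 10866 to 32122, whereas CD27 had at most 9. Of 8 markers of other cells, MS4A1 and LYZ had at most 2 counts, PAX5 and CD14 at most 11, EPCAM at most 12, COL1A1 at most 40, CD3E at most 122 and HBB at most 285. Summed, these 8 markers were at 6.91 to 7.59 CPM (counts per 1e6 counts after TMM scaling) in MM1S Veh, 6.12 to 7.51 under TAK-981, 4.35 to 4.39 under Dex and 2.85 to 3.13 under combo, and at 6.90 to 19.2 over the MM1R libraries. CD3E, a T-cell gene, fell with TAK-981 in both lines (log2 fold change −0.67 and −0.96), and its part in the results was not tested. No 2 libraries of a group agreed within sampling noise. In several groups the replicates stood apart in the members: Dex replicate 2 was above Dex replicate 1 in 66 of 78 members in MM1S (median 0.17 on the log2 scale) and in 73 of 78 in MM1R (median 0.14), and TAK-981 replicate 2 was above replicate 1 in 63 of 78 in MM1R (median 0.05), while the median over all genes was within 0.02 of 0. The MM1S TAK-981 libraries differed most from each other for their depth (chi-square per degree of freedom 21.3), though not in 1 direction, with replicate 2 higher in 44 members. The MM1S Dex and MM1S TAK-981 libraries shared the members that differed between their replicates. RPLP1 was at 538 and 775 CPM in the MM1S Dex libraries and at 542 and 756 in the MM1S TAK-981 libraries, and RPS19 at 546 and 776 and at 540 and 737. Across the 78 members, the log2 differences of replicate 2 from replicate 1 in these 2 groups had a Pearson r of 0.76, given as a description because genes are not independent replicates. Results that rest on these libraries are given below with and without them.

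Together the members took 1.93% to 2.71% of all counts. In MM1S the share was 2.52% and 2.48% under Veh, 2.40% and 2.46% under TAK-981, 2.43% and 2.71% under Dex, and 2.20% and 2.14% under combo. In MM1R it was 2.24% and 2.21% under Veh, 1.93% and 1.997% under TAK-981, 2.09% and 2.26% under Dex, and 1.98% and 1.99% under combo. The combo libraries of MM1S lay below the other 6 MM1S libraries, and the 4 MM1R libraries with TAK-981 lay below the 4 without it. A share also depends on the other RNAs in the total. With the noncoding RNA MALAT1 left out of the total, the log2 ratio of the share moved from −0.18 to −0.13 for TAK-981 against Veh in MM1R. For combo against Dex it moved from −0.13 to −0.09 in MM1R and from −0.25 to −0.20 in MM1S. In bulk RNA, fewer cells of one state and less of an RNA per cell cannot be told apart, and a share says nothing of the ribosomes per cell.

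**Figure D1:**
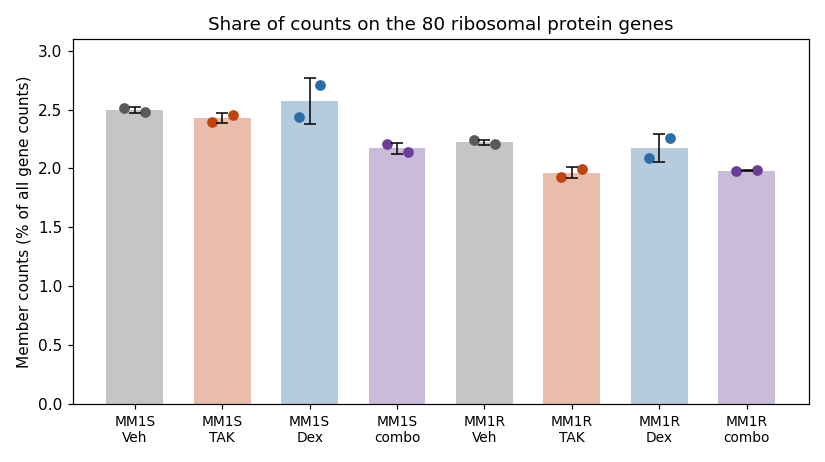
Share of all gene counts (percent, vertical axis) on the 80 member genes by line and treatment (8 groups, horizontal axis). Points are the 2 libraries, bars the mean and error bars the SD (n = 2); the lowest MM1S group is combo (2.20% and 2.14%), and the MM1R groups with TAK-981 lie at 1.93% to 1.997%.

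Levels per kb of gene model differed widely among proteins that the ribosome mostly holds in equal numbers. The length used was that given with the counts, 5.18 kb for RPL28 and 0.508 kb for RPLP1, and levels per kb depend on it. The median tested member was at 177 CPM per kb over the 16 libraries, compared with 7.48 for all tested genes. Among the highest were RPL35A (1104 CPM per kb), RPLP1 (1037) and RPL8 (1007). At the other end, RPS10 (1.81 CPM per kb), RPL7 (2.61), RPS26 (3.68), RPL36A (5.44), RPL17 (5.77), RPL21 (7.03) and RPS27 (7.18) lay under the median of all genes. RPS10 had 16 to 49 counts per library, and RPS27, 27 to 85. Several members with low levels had many pseudogene copies: GENCODE 29 names 66 after RPL21, 61 after RPL7, 30 after RPS26 and 15 after RPS27, compared with 17 after RPL35A, 4 after RPLP1 and 1 after RPL8. RPS10, the lowest tested member, had 11. In contrast, RPL23A with 91, RPL12 with 50 and RPL7A with 37 lay at 92.1, 303 and 312 CPM per kb. The 12 members lowest per kb had a median of 18 pseudogenes and all tested members 9.5 (Spearman rho of level and number −0.41 across genes, a description). RPS10, RPL17 and RPL36A also overlap the read-through genes RPS10-NUDT3, RPL17-C18orf32 and RPL36A-HNRNPH2, whose rows hold 0 counts in every library. How reads that match several copies were counted is not given in the sources used here, so the levels of these 7 members are uncertain, and the part of shared reads in them was not tested.

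**Figure D2:**
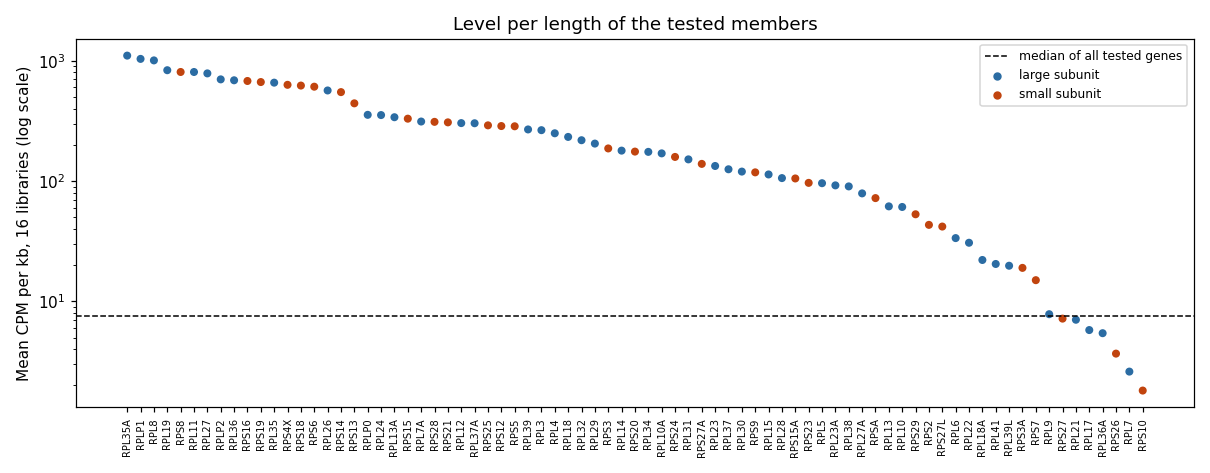
Mean CPM per kb of gene model over the 16 libraries (vertical axis, log scale) for the tested members in falling order, 1 of them not shown (horizontal axis), blue for the large and orange for the small subunit. The dashed line is the median of all tested genes (7.48); the members shown run from 1104 for RPL35A to 1.81 for RPS10, with 7 under the line.

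TAK-981 against Veh asks what SUMOylation inhibition alone did in each line. In MM1R cells, 31 of the 78 members fell and 1 rose, with a median log2 fold change of −0.19. In MM1S cells, 5 fell and 3 rose, with a median of 0.01. Both subunits took part in MM1R, with 18 of 47 large and 13 of 31 small subunit genes lower. Among all genes, TAK-981 was called lower in 27.6% and higher in 25.8% in MM1R, and lower in 23.7% and higher in 25.2% in MM1S (edgeR quasi-likelihood test, Benjamini-Hochberg adjusted p under 0.05, as in every call here), with medians of 0.00 and 0.04. Thus 8 of the 78 members changed in MM1S, where nearly 1 gene in 2 did. Of 78 values, 72 were negative in MM1R and 37 in MM1S.

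RPS21, a small subunit protein needed for late maturation of 18S rRNA, fell in both lines. It was at 312 and 302 CPM in MM1S Veh and at 252 and 253 under TAK-981, and at 312 and 310 in MM1R Veh and at 228 and 238 under TAK-981, with no overlap in either line. The log2 fold changes were −0.28 ± 0.07 (SE) in MM1S (edgeR adjusted p = 0.00186) and −0.42 ± 0.07 in MM1R (4.23e-05). RPS21, RPL39L, RPS24 and RPS25 were the 4 members lower in both lines. RPL23A fell in MM1S from 111 and 101 to 99.0 and 75.5 CPM (log2 fold change −0.28, adjusted p = 0.0253), and without TAK-981 replicate 2 it was −0.10 and not called. Its call was also lost without Veh replicate 1 and with only the groups compared. RPS9 (0.27, adjusted p = 0.024) and RPS15 (0.25, 0.00846) rose in MM1S, from 199 and 212 to 234 and 263 CPM and from 133 and 138 to 151 and 172 CPM. Neither call held without TAK-981 replicate 2, without Veh replicate 1 or with only the groups compared, and RPS9 was also lost without Veh replicate 2. RPS24 likewise lost its MM1S call without TAK-981 replicate 2, without Veh replicate 1 and with only the groups compared. The 2 TAK-981 libraries of MM1S thus differed in single members by as much as the treatment did.

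The stalk gene RPLP0 fell in MM1R from 466 and 472 to 379 and 391 CPM (log2 fold change −0.29 ± 0.06, adjusted p = 0.000564). In MM1S it went from 506 and 484 to 437 and 463 CPM, a value of −0.14 (0.0629) that did not pass the test. In 8 of the other settings it was called lower in MM1S. RPLP1 had −0.14 (0.495) and RPLP2 −0.24 (0.0554) in MM1R. Neither passed, although RPLP2 was called lower there in 9 of the other settings and RPLP1 in 1. RPSA, the laminin receptor protein of the small subunit, fell in MM1R from 91.6 and 93.8 to 75.9 and 79.7 CPM (−0.25, 0.0132), a call lost without Veh replicate 2 or TAK-981 replicate 1 (adjusted p up to 0.101). RPL5 fell in MM1R from 241 and 243 to 200 and 210 CPM (−0.24, 0.00149), whereas its partner in MDM2 binding RPL11 was at 504 and 488 and then at 474 and 477 CPM (−0.06, 0.405). RPS6, the S6 kinase substrate, had −0.20 (0.0641), RPS14 −0.23 (0.115) and RPS19 −0.03 (0.863) in MM1R, and none of these 3 passed in MM1S. Among the other settings, RPS6 was called lower in MM1R in 8 and RPS14 in 4, and RPS19 was called higher in MM1S in 2. In the list of 10 members known to bind MDM2, 5 fell, RPS3 (−0.31, 0.00749) among them, and 1 rose in MM1R, and 1 rose in MM1S. Of the 17 Diamond-Blackfan genes that are members, 9 fell, RPL35A (−0.26, 0.00255) and RPL15 (−0.20, 0.00627) among them, and 1 rose in MM1R, and 1 fell in MM1S.

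RPL41, a very short basic protein, fell in MM1R from 13.2 and 12.9 to 10.2 and 9.46 CPM (log2 fold change −0.41, adjusted p = 0.0173), a call lost without either Veh library or TAK-981 replicate 2 (adjusted p up to 0.118). The 2 remaining called values with the greatest size in MM1R rested on few reads. RPS26 fell from 3.18 and 3.46 to 2.31 and 1.97 CPM (−0.64, 0.0403), and RPS27 rose from 1.74 and 1.86 to 2.90 and 2.71 CPM (0.64, 0.0431). Both lost the call with DESeq2 and without any 1 of the 4 MM1R libraries compared. With only the 71 tested members above the median level of all genes, 30 fell and 0 rose in MM1R, and 5 fell and 3 rose in MM1S.

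The interaction of line and TAK-981 asks whether the 2 lines differed in this change. No member passed that test in edgeR (0 lower and 0 higher), with 22 at an unadjusted p under 0.05, and DESeq2 also called 0. The count was not 0 under every setting: 13 members were lower with a replicate block, 11 without a filter on low counts and 11 without MM1S TAK-981 replicate 1. Among all genes, 0.978% were called lower and 3.19% higher. The value was more negative in MM1R for 70 of the 78 members, with a median difference of −0.18 and a median SE of 0.12. For single genes a difference between the lines thus depended on the setting. In MM1R 27 members fell that were not called in MM1S, and the same count over all genes was not made. Without any 1 of the MM1R Veh and TAK-981 libraries, the median of the members in MM1R stayed between −0.20 and −0.18. Fewer members were then called lower, in most of these fits at a share near that of all genes. At a threshold of 0.01, 18 members were lower in MM1R, compared with 21.8% of all genes. When the model held just the Veh and TAK-981 libraries of MM1R, 61 were lower, compared with 34.9% of all genes.

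The genes around the members gave a reference. FAU, which encodes RPS30 as a fusion with a ubiquitin-like protein, and RACK1, a small subunit scaffold, fell in MM1R with values of −0.34 and −0.31 (adjusted p = 0.00509 and 0.002), and in MM1S they were at 0.06 and −0.13 and did not pass. Of 22 ribosome assembly genes, 21 fell in MM1R and 13 in MM1S, with medians of −0.42 and −0.24. Of 76 tested mitochondrial ribosomal protein genes, 51 fell and 2 rose in MM1R, and 18 fell and 5 rose in MM1S. Of 25 other genes with TOP mRNAs, 16 fell in MM1R, and 9 fell and 1 rose in MM1S. NPM1, a nucleolar chaperone of that list, was at 280 and 268 CPM in MM1S Veh and 202 and 208 under TAK-981 (−0.42, 3.15e-05), and at 342 and 350 and then 201 and 208 in MM1R (−0.76, 2.27e-08). NAP1L1 (−0.50 and −0.61) and VIM (−0.82 and −0.54) of that list also fell in MM1S and MM1R, as did the assembly genes NOLC1 (−0.63 and −0.60), NCL (−0.42 and −0.70) and DKC1 (−0.50 and −0.61). Of 7 noncoding RNAs with TOP starts, 3 rose and 2 fell in MM1S and 2 fell in MM1R: SNHG1 (−0.57 and −0.60) and SNHG6 (−0.31 and −0.37) fell in both, and GAS5 rose in MM1S (0.31) and was at 0.03 in MM1R, not called. Of 13 regulators of TOP mRNAs, 3 rose and 3 fell in MM1S, and 1 rose and 5 fell in MM1R. Among them MYC, a transcription factor that raises ribosome production, fell in both lines (−0.68 and −0.56, 4.45e-08 and 5.38e-07), EIF4EBP1, the mTORC1 substrate that restrains eIF4E, fell (−1.09 and −0.91), and TSC1, an inhibitor of mTORC1, rose (0.27 and 0.33). Members with a TOP tract at the annotated first base had a median of −0.19 in MM1R (46 genes) and those without one there −0.18 (17 genes). In MM1S the medians were −0.00 and −0.02. Some of the latter, RPL10A and RPL4 among them, have such a tract a few bases further on. These classes therefore do not separate TOP mRNAs from others, and the part of the tract was not tested.

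**Figure D3:**
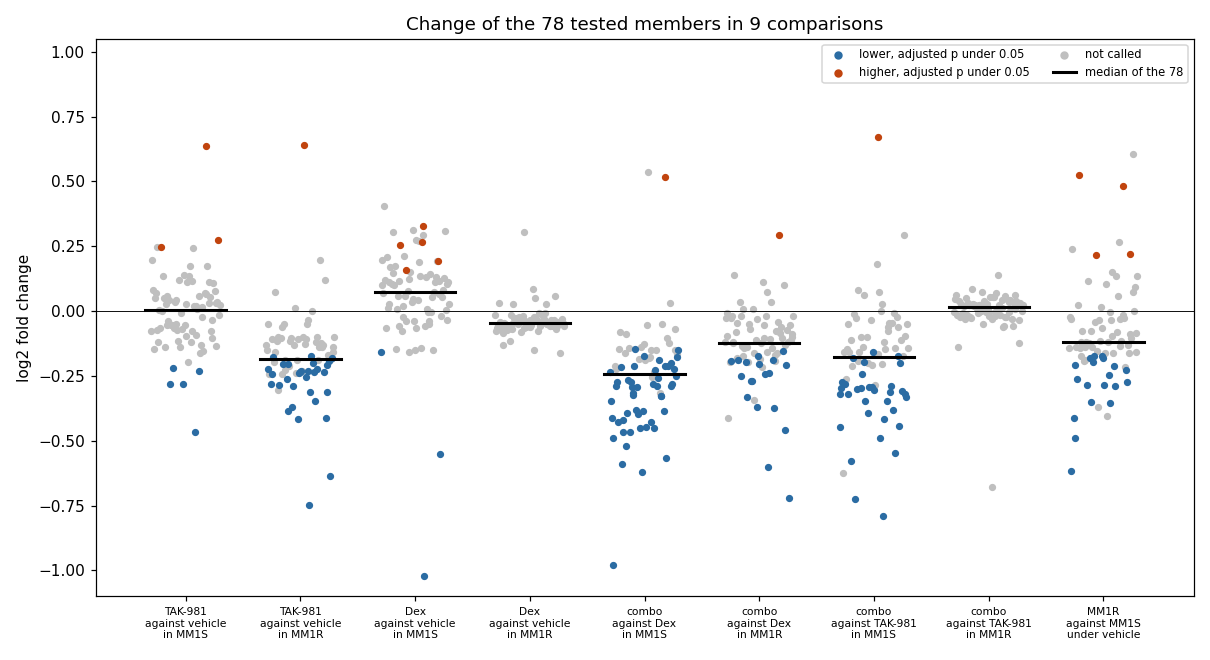
Log2 fold change (vertical axis) of the 78 tested members in 9 comparisons (horizontal axis), 1 point per gene, blue when lower and orange when higher at an adjusted p under 0.05, grey when not called, with the median as a black bar. Medians lie near 0 for TAK-981 in MM1S (0.01) and below it for TAK-981 in MM1R (−0.19) and for combo against Dex in MM1S (−0.24).

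Dex against Veh asks what the glucocorticoid alone did. In MM1S, 5 members rose and 3 fell, with a median log2 fold change of 0.08, compared with 20.8% higher and 21.5% lower among all genes. In MM1R, 0 members rose and 0 fell in edgeR and in DESeq2, 0 members had an unadjusted p under 0.05, and among all genes 0% were called higher and 0% lower. Of 14215 genes, 395 had an unadjusted p under 0.05 in that line. RPL10A rose in MM1S from 191 and 185 to 220 and 252 CPM (0.33 ± 0.06, adjusted p = 0.000461), and it was called with either Dex library left out. RPL3, which lies at the peptidyl transferase center, rose from 746 and 741 to 832 and 959 CPM (0.27, 0.00686), RPS12 from 154 and 151 to 164 and 200 CPM (0.26, 0.0164), and RPL31 from 359 and 356 to 397 and 422 CPM (0.19, 0.045). In each of these the higher value was Dex replicate 2, the library in which most members were high, and without it RPL3, RPS12 and RPL31 were not called. RPS12 was also lost without either Veh library, and RPL31 in 14 settings in all, DESeq2, RLE and library size only among them. RPL28 was the remaining higher member. Without Dex replicate 2 the count was 1 higher and 5 lower with a median of −0.02, and without Dex replicate 1 it was 23 higher and 2 lower with a median of 0.15. The small rise of the members as a set was thus seen in 1 library of 2.

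Under Dex in MM1S 56 members had positive and 22 negative values, and 3 of the latter passed the test. RPL39L fell from 17.4 and 18.1 to 7.67 and 9.78 CPM (log2 fold change −1.02 ± 0.14, adjusted p = 7.01e-06), and it was called with every library left out in turn. RPL41 fell from 13.3 and 15.99 to 9.43 and 10.5 CPM (−0.55, 0.00335), a call lost without Veh replicate 2. RPL10 fell from 194 and 199 to 167 and 185 CPM (−0.16, 0.0415) and was lost without any 1 of the Veh libraries or Dex replicate 1, with no filter and with only the groups compared. The interaction of line and Dex called 2 members with a more positive change in MM1R, RPL39L and RPL41, and 2 with a more negative one, RPL10A and RPL3, compared with 15% and 13.1% of all genes. Under Dex in MM1R these 4 genes were at −0.01, 0.06, −0.08 and −0.04, none called. Ribosome assembly genes rose in 9 of 22 cases under Dex in MM1S and mitochondrial ribosomal protein genes rose in 8 and fell in 7 of 76.

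Combo against Dex asks what TAK-981 added to Dex. In MM1S, 50 of the 78 members fell and 1 rose, with a median log2 fold change of −0.24, compared with 25.4% lower and 22.2% higher among all genes. In MM1R, 19 fell and 1 rose, with a median of −0.12, compared with 25.3% and 23.1%. The fall in MM1S covered 28 of 47 large and 22 of 31 small subunit genes. Without Dex replicate 2, 24 members fell in MM1S (19.6% of all genes lower in that fit, median of members −0.17), and 5 in MM1R (18.9%, median −0.07). Leaving out combo replicate 1 or 2 gave medians of the members of −0.29 and −0.22 in MM1S. Without Dex replicate 1 the median was −0.35 in MM1S and −0.19 in MM1R. In both lines the median was thus smallest in size without Dex replicate 2. The 19 lower members of MM1R (24.4%) were near the share of all genes to begin with.

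In MM1S, RPS21 fell from 296 and 339 CPM under Dex to 215 and 198 under combo (−0.62 ± 0.07, adjusted p = 5.3e-07) and was called with every library left out in turn. RPS27A, a ubiquitin fusion of the small subunit, fell from 195 and 276 to 166 and 148 CPM (−0.59, 0.00289), with −0.32 and still called without Dex replicate 2. RPLP1 fell from 538 and 775 to 438 and 449 CPM (−0.57, 0.011), and RPS10, with few reads, from 1.55 and 2.47 to 1.18 and 0.88 CPM (−0.98, 0.00911). The last 2 were not called without Dex replicate 2, and RPLP1 also not without combo replicate 1 and RPS10 not without combo replicate 2. All 3 stalk genes fell in MM1S, and in MM1R 1 did, RPLP0, with −0.19 (0.0131). In MM1R, RPL14 fell from 179 and 200 to 144 and 149 CPM (−0.37 ± 0.07, 0.000242), RPL41 from 13.4 and 13.8 to 10.6 and 9.25 CPM (−0.46, 0.00937), and RPS26 from 3.19 and 3.27 to 1.86 and 2.07 CPM (−0.72, 0.0257). RPL14 kept its call with every library left out in turn, whereas RPL41 lost it without Dex replicate 2 or combo replicate 2. RPS26 lost it without any 1 of the 4 libraries compared and with DESeq2.

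Combo against TAK-981 asks what Dex added to TAK-981. The groups compared do not include the Dex libraries, but those libraries were in the fit and its shared estimate of the spread. In MM1S, 33 members fell and 1 rose, with a median of −0.18, compared with 20.6% lower and 14.5% higher among all genes. In MM1R, 0 fell and 0 rose in edgeR and in DESeq2, with 1 member at an unadjusted p under 0.05, and among all genes 0% were called lower and 0% higher, with 214 at an unadjusted p under 0.05. RPS2, a small subunit protein near the mRNA entry site, fell in MM1S from 67.4 and 80.6 to 44.4 and 45.1 CPM (−0.72 ± 0.10, adjusted p = 2.33e-05) and was called with every library left out in turn. RPS27A fell from 206 and 262 to 166 and 148 CPM (−0.58, 0.00461) and RPLP1 from 542 and 756 to 438 and 449 CPM (−0.55, 0.0174), calls that were lost without TAK-981 replicate 2, and for RPLP1 also without either combo library. The higher member was RPS27, at 3.06 and 2.16 and then 3.59 and 4.67 CPM (0.67, 0.0352), which was lost with DESeq2 and without TAK-981 replicate 2 or combo replicate 2. When 1 library was left out, the median of the members ran from −0.22 to −0.18. The count of lower members was lowest without combo replicate 2 and highest without TAK-981 replicate 1. The log2 ratio of the summed share was −0.16 with all libraries, −0.18 without TAK-981 replicate 1 and −0.14 without TAK-981 replicate 2. Of the members, 29 were lower in combo than in both Dex and TAK-981, 21 than in Dex alone and 4 than in TAK-981 alone, and the combo libraries are shared by both counts. The same counts over all genes were not made, so these do not set the members apart from other genes. In the same comparison 18 of 76 mitochondrial ribosomal protein genes fell and 2 rose, 3 of 22 ribosome assembly genes fell and 1 rose, and 8 of 25 other TOP genes fell.

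The interaction of TAK-981 and Dex in MM1S asks whether both agents together moved a gene by more or less than the single agents added up, in log2 units. It was called lower for 24 members and higher for 0, with a median of −0.26, compared with 9.48% lower and 5.47% higher among all genes. The median SE of a member was 0.12, and 48 members had an unadjusted p under 0.05. The 24 included RPLP0, RPLP1, RPLP2, RPSA and RPS21. The count was 0 without Dex replicate 2, where 24 members had an unadjusted p under 0.05 and the median was −0.17, and 43 without Dex replicate 1. It was also 0 when the model held just the 4 MM1S groups, with 37 unadjusted, whereas DESeq2 called 26.

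The paralogs RPS27L and RPL39L gave the highest or the lowest called value of the members in several comparisons. RPS27L lies on chromosome 15 (63445539 to 63449741, minus strand, hg19) and is a known p53 target, and RPS27 lies on chromosome 1 (153963239 to 153964631, plus strand, hg19). RPS27L was at 47.4 and 46.9 CPM in MM1S Veh, 85.1 and 61.8 under TAK-981, 52.2 and 49.9 under Dex, and 79.6 and 66.5 under combo. In MM1R it was at 66.9 and 64.9 under Veh, 74.6 and 76.6 under TAK-981, 60.4 and 66.1 under Dex, and 78.8 and 76.3 under combo. All 4 MM1S libraries with TAK-981 lay above the 4 without it, and likewise in MM1R. TAK-981 raised RPS27L in MM1S by a log2 fold change of 0.64 ± 0.11 (adjusted p = 0.000163), or 1.56-fold, and by 0.39 without TAK-981 replicate 1 and 0.85 without TAK-981 replicate 2, called in both. In MM1R the value was 0.20 ± 0.11 (0.138), not called, although it was called higher in 5 of the other settings. The difference between the lines was −0.44 (0.122) and did not pass. Combo was above Dex in both lines, by 0.52 (0.00125) in MM1S and by 0.29 (0.0347) in MM1R, the second lost when any 1 of the 4 libraries compared was left out. RPS27L was the only member called higher in either of those 2 comparisons. Per kb, RPS27L was at 41.9 CPM and RPS27 at 7.18, and the level of RPS27 is uncertain, since the part of shared reads was not tested.

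RPL39L lies on chromosome 3 (186838741 to 186857263, minus strand, hg19) and RPL39 on chromosome X (118920467 to 118925622, minus strand, hg19). RPL39L is best known from the testis, where its protein takes the place of RPL39 at the exit tunnel of the ribosome. It was at 17.4 and 18.1 CPM in MM1S Veh, 13.9 and 11.8 under TAK-981, 7.67 and 9.78 under Dex, and 7.62 and 7.26 under combo. In MM1R it was at 19.2 and 20.2 under Veh, 11.1 and 12.3 under TAK-981, 17.0 and 22.2 under Dex, and 13.04 and 12.8 under combo. In MM1S each treatment lay below Veh with no overlap, and in MM1R only the groups with TAK-981 did. Its log2 fold change under TAK-981 was −0.47 ± 0.13 in MM1S cells (adjusted p = 0.00581), and for MM1R cells it was −0.75 ± 0.13 (7.56e-05), and in combo it was below Dex in MM1R (−0.60, 0.00059) and below TAK-981 in MM1S (−0.79, 0.000391). The MM1S value under TAK-981 was not called without TAK-981 replicate 2. The Dex change differed between the lines by 1.01 ± 0.18 (0.000313). RPL39 itself was at 115 and 115 CPM in MM1S Veh, 123 and 141 under TAK-981, 109 and 137 under Dex and 105 and 88.8 under combo, and in MM1R it ran from 97.8 to 118 over the 8 libraries. Per kb, RPL39 was at 269 CPM and RPL39L at 19.8.

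**Figure D4:**
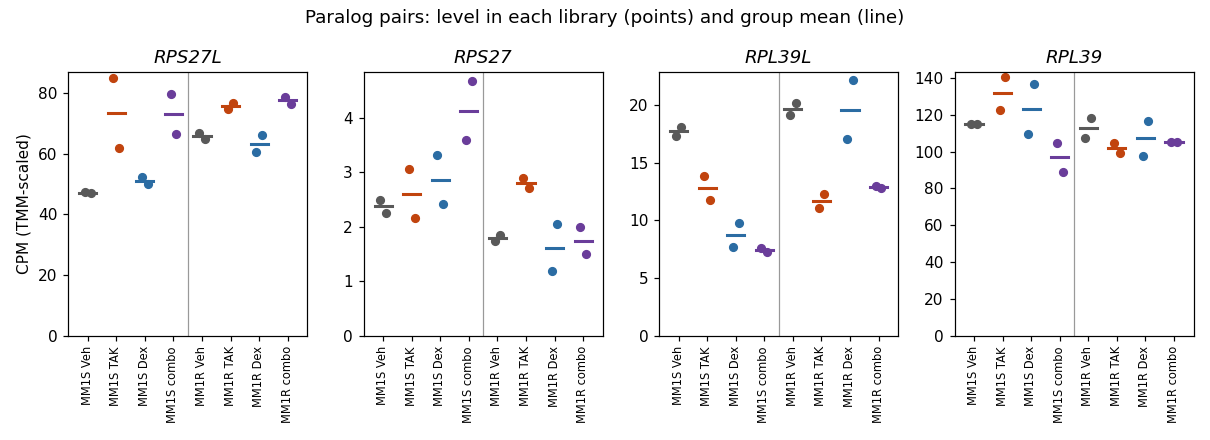
CPM after TMM scaling (vertical axes, each from 0 with its own range) of RPS27L, RPS27, RPL39L and RPL39 in the 8 groups (horizontal axes). Points are the 2 libraries and lines the mean; RPS27L is at 47.4 and 46.9 in MM1S Veh and at 85.1 and 61.8 under TAK-981, and RPL39L falls from 17.4 and 18.1 in MM1S Veh to 7.62 and 7.26 under combo.

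MM1R against MM1S under Veh asks how the resistant line differed before treatment. In MM1R 19 members were lower and 4 higher, with a median log2 difference of −0.12, compared with 22.6% lower and 25.6% higher among all genes. RPL22, a large subunit protein that T-cell leukemias lose, stood out: it was at 82.9 and 80.9 CPM in MM1S and 52.7 and 54.2 in MM1R (−0.62 ± 0.08, adjusted p = 3e-06). Over all treatments MM1R libraries lay between 48.3 and 54.2 CPM and MM1S libraries between 60.1 and 92.5. RPL22 lies on chromosome 1 (6245080 to 6259679, minus strand, hg19), and the 13 tested genes within 1 Mb had a median of 0.07. RPL22 protein is known to hold down its paralog RPL22L1, and RPL22L1 was at 18.6 and 16.3 CPM in MM1S and at 21.5 and 23.4 in MM1R (0.37, 0.00943). In MM1S combo, RPL22 was below TAK-981 by −0.27 (0.00924), at 62.4 and 60.1 against 72.6 and 75.6 CPM, and RPL22L1 was above it by 0.40 (0.0101), at 22.4 and 20.6 against 17.7 and 14.8 CPM. Under TAK-981 against Veh in MM1S neither passed the test, and both values were negative, −0.15 (0.118) for RPL22 and −0.10 (0.492) for RPL22L1.

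RPL13A was at 442 and 459 CPM in MM1S and 320 and 321 in MM1R (−0.49, 0.00205), and it hosts 4 snoRNA rows of the table. RPL34 was at 207 and 207 and at 158 and 153 CPM (−0.41, 0.000742), and RPL3 at 746 and 741 and at 578 and 586 CPM (−0.35, 0.000731). Without MM1R Veh replicate 2 the lower count was 7 rather than 19, and it was 48 when the model held just the Veh libraries. The higher members were RPS15 (133 and 138 CPM in MM1S, 195 and 196 in MM1R, 0.53 ± 0.07, 1.13e-05), RPS27L (0.48, 0.00193), RPS4X (963 and 950, 1120 and 1110 CPM, 0.22, 0.00404) and RPL38 (242 and 234, 279 and 274 CPM, 0.22, 0.0052), the last not called without MM1S Veh replicate 2. RPS15 had neighbours that moved with it: of 61 tested genes within 1 Mb, 42 were higher in MM1R and 0 lower, with a median of 0.50. The 5 tested genes within 1 Mb of RPS3A were all lower, with a median of −0.73, and RPS3A was among the lower members. Copy number was not measured here.

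The 19 lower members (24.4%) were near the share of all genes called lower. Ribosome assembly and mitochondrial ribosomal protein genes were more often called higher than lower in MM1R, but not every related list was. Of 25 other genes with TOP mRNAs, 3 were higher and 6 lower (median −0.07). Of 3 further ribosome proteins outside the rule, 0 were higher and 0 lower (median 0.02). Of 22 ribosome assembly genes, 20 were higher in MM1R and 0 lower (median 0.45), and of 76 mitochondrial ribosomal protein genes 48 were higher and 0 lower (median 0.28). The paralogs outside the rule were RPL7L1, RPL22L1, RPL26L1 and RPL36AL, and 3 of the 4 were higher. RPL7L1 was at 0.34 (adjusted p = 0.000562), and RPL36AL, at −0.03 (0.788), was not called. RPL26L1 was at 6.39 and 5.54 CPM in MM1S and 10.5 and 11.5 in MM1R (0.89, adjusted p = 2.02e-05), and under TAK-981 it was lower in MM1R at 6.93 and 7.39 CPM (−0.62, 0.000416). Of 16 tested pseudogenes of members, 5 were lower in MM1R and 1 higher, with a median of −0.36. The higher one, RPSAP58, was 3.15 log2 units higher in MM1R (2.83e-08), with 7 to 157 counts per library, whereas its parent RPSA was at −0.00 (0.97). A row of a pseudogene and that of its parent can share reads.

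**Figure D5:**
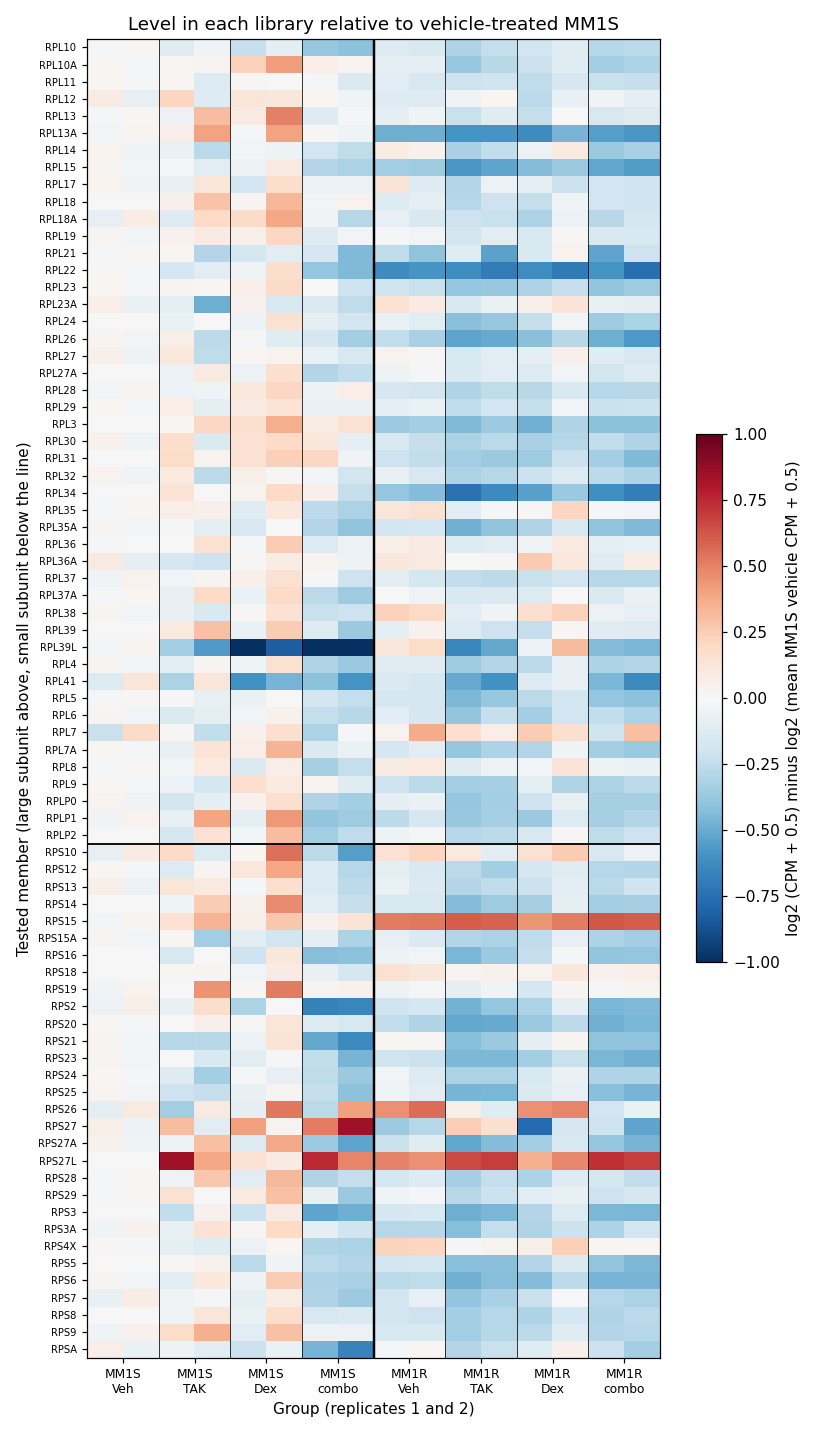
Level of the tested members (rows, large subunit above the line, 1 member not shown) in the 16 libraries (columns, replicates 1 and 2 side by side), as log2 (CPM + 0.5) minus that of the mean MM1S Veh level, blue for lower and red for higher, with colours saturating at 1 log2 unit. Dex replicate 2 of MM1S is redder than replicate 1 in most rows, MM1R is bluer than MM1S in most rows, and RPL39L, RPL22, RPS15 and RPS27L stand apart from their neighbours.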

How the data were processed

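The authors deposited raw read counts per gene, with gene symbol, position and strand, for 16 rRNA-depleted libraries (Ribo-Zero), and no normalized values were used. The submitters' processing notes name hg19, bcl2fastq 2.18.0.12, STAR 2.6.0, HTSeq 0.6.0 and edgeR 3.28.1, and the handling of strand and of reads with several matches is not given in the sources used here. Such reads can affect members with many pseudogenes, and their part was not tested. Libraries were grouped by their labels. Single values of 1 member and 1 gene outside the rule are not reported here, although counts and medians include that member.

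Genes were filtered with filterByExpr, scaled with TMM, and fitted with 1 term per group over all 16 libraries by edgeR 4.0.16 (R 4.3.3) with robust dispersions, leaving 8 residual degrees of freedom. Each comparison was tested with the quasi-likelihood F test, with Benjamini-Hochberg adjustment over 14215 genes and a threshold of 0.05. Total counts (15707587 to 24796539) set the precision. Alternatives were RLE, library size only, no filter, a replicate block, only the groups compared, DESeq2 1.42.0, a threshold of 0.01 and leaving out each library.

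In each comparison up to 4 members per direction were named, those with the greatest change among the called and not overlapping between groups. The paralogs, the stalk, RPSA, RPL5, RPL11, RPL22, RPS6, RPS14 and RPS19 were named throughout. RPS24, RPS25, RPL28, RPS3A and genes outside the rule were named after their values were seen. The members and lists were chosen with earlier results of these data known. Neighbours are tested genes within 1 Mb in hg19, and sequences are RefSeq's (GRCh38.p14). On simulated counts, the fit called 19 of 100 genes changed 1.2-fold and 98 of 100 changed 2-fold in TAK-981 against vehicle in MM1S (14215 genes run), with 5 false calls. No other gene was changed in the simulation, whereas in the data 25.2% of genes were called higher and 23.7% lower. The adjustment for multiple tests therefore differs, and these counts do not give the sensitivity on the data.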

Additional observations from a re-analysis of the deposited data

Results flagged for a closer look

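For 4 members the change under Dex differed between the lines by a test of the interaction of line and Dex (edgeR, adjusted over all genes tested). The change was more positive in MM1R for RPL39L, by 1.01 log2 units (SE 0.18, adjusted p = 0.000313, from 9.21e-09 to 0.00145 over the other settings with all libraries), and for RPL41, by 0.61 (SE 0.19, adjusted p = 0.0212, from 0.00243 to 0.0343). It was more negative in MM1R for RPL10A, at −0.40 (SE 0.09, adjusted p = 0.00274, from 0.00014 to 0.00758), and for RPL3, at −0.30 (SE 0.10, adjusted p = 0.0368, from 0.0025 to 0.0481). With each library left out in turn, RPL39L and RPL10A kept their calls, with values of 0.81 to 1.21 and of −0.50 to −0.29. RPL41 (0.47 to 0.74) and RPL3 (−0.40 to −0.19) each lost the call in several of these fits, RPL3 among others without MM1S Dex replicate 2. Markers of other cell types were at few counts in all libraries, and the part of the high Dex replicate 2 libraries in the values for RPL3 and RPL10A was not tested beyond leaving them out.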

How the results depend on the processing

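With 2 libraries per group the counts of called members moved with most settings, while the median of the members moved less. The cause was not tested where a count changed, unless fewer samples or genes entered the fit. Leaving out a library kept its group in the fit, and the 1 library left was assumed to vary like the others.

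Members called higher and lower, by setting. The share of all genes called moved with the setting too, so these counts do not describe the members alone. Under TAK-981 in MM1S, 17.9% of all genes were higher with no filter and 26.8% were lower with library size only. Under TAK-981 in MM1R, 33.2% were higher and 34.9% lower with only the groups compared, and 21.8% were lower at a threshold of 0.01. Library size only gave 11 lower under TAK-981 in MM1S, 3 higher under Dex in MM1S, 0 higher for combo against Dex in MM1R, 32 lower for MM1R against MM1S (median −0.18) and 12 lower for the interaction of TAK-981 and Dex (median −0.19). No filter gave 8 higher under TAK-981 in MM1S and 2 higher in MM1R, 14 higher under Dex in MM1S, 2 higher for combo against Dex in MM1S, 11 lower for the line difference under TAK-981, 9 lower for that under Dex and 37 lower for the interaction. Only the groups compared gave 1 higher and 3 lower under TAK-981 in MM1S, 4 higher and 61 lower in MM1R, 2 higher and 31 lower for combo against Dex in MM1R, 19 lower for combo against TAK-981 in MM1S, 7 higher and 48 lower for MM1R against MM1S, 1 lower for the line difference under TAK-981, 4 lower for that under Dex and 0 lower for the interaction. DESeq2 gave 0 higher under TAK-981 in MM1R and 0 higher for combo against TAK-981 in MM1S. A threshold of 0.01 gave 0 higher and 18 lower under TAK-981 in MM1R, 2 higher under Dex in MM1S, 0 higher and 6 lower for combo against Dex in MM1R, 0 higher for combo against TAK-981 in MM1S, 7 lower for MM1R against MM1S, 1 higher and 1 lower for the line difference under Dex and 0 lower for the interaction. The summed share of the members in MM1R against MM1S moved from −0.17 to −0.10 on the log2 scale with TMM-scaled library sizes.

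Replicate numbers are shared between groups, and no label ties a number to a culture or day. Over all genes, same-numbered libraries deviated together with r of 0.04 to 0.38 in MM1S and 0.01 to 0.12 in MM1R, so pairing was not taken as shown. Across the members alone r was 0.23 to 0.764 in MM1S and −0.357 to 0.253 in MM1R. The fit with the replicate block gave 8 lower under TAK-981 in MM1S, 2 higher in MM1R, 13 higher under Dex in MM1S, 2 higher for combo against Dex in MM1S, 2 higher and 30 lower for it in MM1R, 7 higher for MM1R against MM1S, 13 lower for the line difference under TAK-981, 8 lower for that under Dex and 39 lower for the interaction. Its other counts were within 1.5 times. Under TAK-981 in MM1S this fit called 28.3% of all genes higher and 26.7% lower.

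Leaving out each library in turn gave these ranges of called members, and the share of all genes called moved with the library left out as well. TAK-981 in MM1S had 1 to 8 higher and 2 to 10 lower, and in MM1R 0 to 2 and 16 to 42. Dex in MM1S had 1 to 23 higher and 1 to 5 lower, with a median of −0.0241 to 0.152, and the median under Dex in MM1R ran from −0.12 to 0.0212. Combo against Dex had 1 to 2 higher and 24 to 58 lower in MM1S (median −0.35 to −0.17) and 0 to 1 higher and 5 to 26 lower in MM1R (median −0.186 to −0.065). Combo against TAK-981 in MM1S had 0 to 3 higher and 18 to 40 lower. MM1R against MM1S had 7 to 22 lower. The line difference under TAK-981 had 0 to 11 lower, and that under Dex 1 to 2 higher and 1 to 19 lower (median −0.19 to −0.0137). The interaction had 0 to 2 higher and 0 to 43 lower (median −0.34 to −0.17). The summed share, on the log2 scale, ran from −0.0355 to 0.12 for Dex in MM1S, −0.0911 to 0.0216 for Dex in MM1R, −0.32 to −0.17 for combo against Dex in MM1S and −0.187 to −0.0741 in MM1R.

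Values of single members that changed sign were all uncalled. Under TAK-981 in MM1S, RPS6 was −0.0129 with RLE and with DESeq2, −0.0448 with library size only, −0.00144 with no filter, −0.0217 with only the groups compared, and −0.107 to 0.106 with a library left out. With a library left out, RPLP2 ran from −0.177 to 0.142, RPS27 from −0.138 to 0.362, RPLP1 from −0.0865 to 0.395, RPL11 from −0.137 to 0.0208, RPS14 from −0.0442 to 0.251 and RPS19 from −0.000687 to 0.447. Under Dex in MM1R, RPL39L was 0.00695 with library size only, 0.00399 with only the groups compared and −0.209 to 0.169 with a library left out, and RPS27L ran from −0.124 to 0.00434. For combo against TAK-981 in MM1S, RPS27L was 0.0345 with library size only, 0.0162 with only the groups compared and −0.221 to 0.241 with a library left out. Depth limits the members with few reads, RPS10, RPS26 and RPS27 among them.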
